A study of Homo sapiens with 14 samples.

Results

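The 40 genes described here encode factors that make ribosomes in the nucleolus, and they were chosen by symbol from the 23106 genes counted in each library. All 40 were present in the counts and all 40 passed the filter on low counts in every comparison. Polyadenylated RNA was sequenced from PC3, a human prostate cancer line, and HCT116, a human colorectal cancer line, neither of them modified here (PC3 in DMEM/Hams F12 medium and HCT116 in McCoy's 5a medium, so line and medium cannot be told apart). Cells were kept in normoxia (21% O2) or hypoxia (0.5% O2 for 16 h), and each condition had 4 replicates of PC3 or 3 of HCT116. The libraries held 98021966 to 123935458 counts in normoxic PC3, 71228454 to 96159803 in hypoxic PC3 and 133067391 to 150630928 in HCT116.

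Ribosome production starts with transcription of ribosomal RNA genes by RNA polymerase I, which the factors UBTF and RRN3 bring to the promoter. The precursor RNA is then modified by small nucleolar ribonucleoproteins (snoRNPs), in which box C/D particles methylate riboses and box H/ACA particles convert uridine to pseudouridine. Separate sets of processing factors cleave and fold the precursor into the small and the large subunit. The process uses much of the energy of a growing cancer cell, and MYC is its best known transcriptional activator, acting through the E-box CACGTG. The question put to the counts was how the RNAs of these factors stood in each line and how they changed with oxygen.

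The 4 promoters below were printed because they belong to genes that marked both directions of the hypoxic change. UTP15 and WDR75 fell in both lines, and FBL and PES1 rose in HCT116. Each sequence runs from 120 bases before to 30 bases after the RefSeq start site and was matched to GRCh37. UTP15 lies on the plus strand at chr5:72861448-72861597, WDR75 on the plus strand at chr2:190306080-190306229, FBL on the minus strand at chr19:40336990-40337139 and PES1 on the minus strand at chr22:30987868-30988017. Capitals mark the E-box CACGTG and the hypoxia response element cores ACGTG and GCGTG on either strand. An E-box contains the core ACGTG on both strands, so a core inside an E-box is not a separate match.
UTP15: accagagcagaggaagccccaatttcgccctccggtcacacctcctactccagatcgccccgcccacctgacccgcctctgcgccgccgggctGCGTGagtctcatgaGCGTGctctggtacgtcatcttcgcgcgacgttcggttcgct
WDR75: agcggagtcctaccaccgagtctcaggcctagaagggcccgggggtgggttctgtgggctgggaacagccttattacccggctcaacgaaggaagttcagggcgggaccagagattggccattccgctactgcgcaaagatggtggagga
FBL: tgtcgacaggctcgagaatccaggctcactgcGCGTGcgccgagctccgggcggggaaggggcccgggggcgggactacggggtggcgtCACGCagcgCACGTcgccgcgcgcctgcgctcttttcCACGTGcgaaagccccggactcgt
PES1: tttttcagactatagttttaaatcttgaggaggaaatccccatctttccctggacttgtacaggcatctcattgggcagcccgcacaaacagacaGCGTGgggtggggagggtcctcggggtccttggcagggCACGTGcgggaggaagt
The FBL and PES1 stretches each held an E-box just after the start site, and the UTP15 and WDR75 stretches held none. The core GCGTG stood at 2 places in UTP15, 2 in FBL and 1 in PES1, and FBL also held ACGTG once outside its E-box. The WDR75 stretch held none of these letters, although its longer 300-base promoter held GCGTG once. RefSeq promoters (GRCh38.p14, 300 bases each, 250 of them before the start) were on hand for 33 of the 40 genes. POLR1E, TCOF1, NOP58, NOLC1, RRP12, BOP1 and RRS1 were the other 7. An E-box stood in a promoter of 15 of the 33 genes (45.5%). Besides FBL and PES1 these were WDR43, which fell in HCT116, and 12 genes with no call in hypoxia without the replicate block. Of those 12, GAR1, DDX21 and RRP9 fell in PC3 with the replicate number as a block. The 4 printed stretches are therefore examples and no contrast of genes that rose and fell. By promoter, an E-box stood in 16 of 43 (37.2%), compared with 8.84% of the promoters of genes tested in either line and 7.26% of all promoters in the table. ACGTG outside an E-box stood in 18.6% of the members' promoters, 17.4% of those of tested genes and 15.5% of all, and GCGTG in 69.8%, 46.7% and 36.5%. These are matches of letters and not binding sites.

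Before the comparisons, the labels were checked against the counts. CA9, NDRG1, BNIP3, ADM, VEGFA, PDK1, EGLN3 and ANKRD37, which are induced by hypoxia in many cells, rose in hypoxia in both lines (8 of 8 genes in each, edgeR adjusted p at most 0.0192 in PC3 and 2.07e-06 in HCT116). Their median log2 fold change was 1.66 in PC3 and 2.89 in HCT116. KRT8, the most abundant of the 4 epithelial markers, was high in both lines, at 1231 to 1796 CPM in PC3 (CPM, the count as a share of the library's scaled total) and 1954 to 2648 in HCT116. HOXB13, a prostate marker, reached 61.8 to 92.7 CPM in PC3, but the prostate markers KLK2, KLK3 and FOLH1 stayed below 0.05 CPM there. CDX2, an intestinal marker, was present in HCT116 at 16.2 to 20.9 CPM and at 0 in PC3, while CDX1, VIL1, CDH17 and LGR5 stayed below 0.1 CPM in HCT116. Summed over 5 genes, fibroblast markers reached 6.92 to 12.9 CPM across all libraries, mostly from COL1A1. The 4 leukocyte markers summed to at most 0.904 CPM and the 3 endothelial markers to at most 3.03 CPM, the latter in PC3 and mostly from PECAM1.

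The libraries of PC3 replicate 1 stood apart from the other PC3 libraries. In normoxia, 0 of the 40 genes were above their group mean in replicate 1, with a median deviation of -0.18 on the log2 scale, compared with 40 of 40 in each of replicates 2 and 3 and 29 in replicate 4. Its hypoxic partner showed the same, with 2 of 40 genes above the mean and a median deviation of -0.14. Hypoxic replicate 4, the smallest library, had 14 genes above the mean and stood apart over all genes. Its chi-square per gene was 104 and 142 against hypoxic replicates 2 and 3, compared with 115 and 99.2 for hypoxic replicate 1 against the same libraries and 15.3 between them. Same-numbered PC3 libraries had correlated deviations from their group means across all tested genes, from 0.137 to 0.672 over the 4 pairs. Because both libraries of replicate 1 stood apart, such deviations can correlate in the other pairs without any pairing. Differently numbered pairs were not set beside them, so a pairing is not shown. PC3 results are also given with the replicate number as a block, as an alternative. Normoxic replicate 3 of HCT116 also stood apart, with a chi-square per gene of 114 and 84.5 against the other normoxic libraries and 22.1 between those, and without it 10 of the 40 genes were lower in hypoxia and 1 was higher (10.4% and 13% of all genes). Hypoxic replicate 2 of HCT116 had 3 of the 40 genes above its group mean, with a median deviation of -0.095. Without that library the median log2 fold change of the 40 genes in HCT116 was -0.10, and 27 were below 0.

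**Figure D1:**
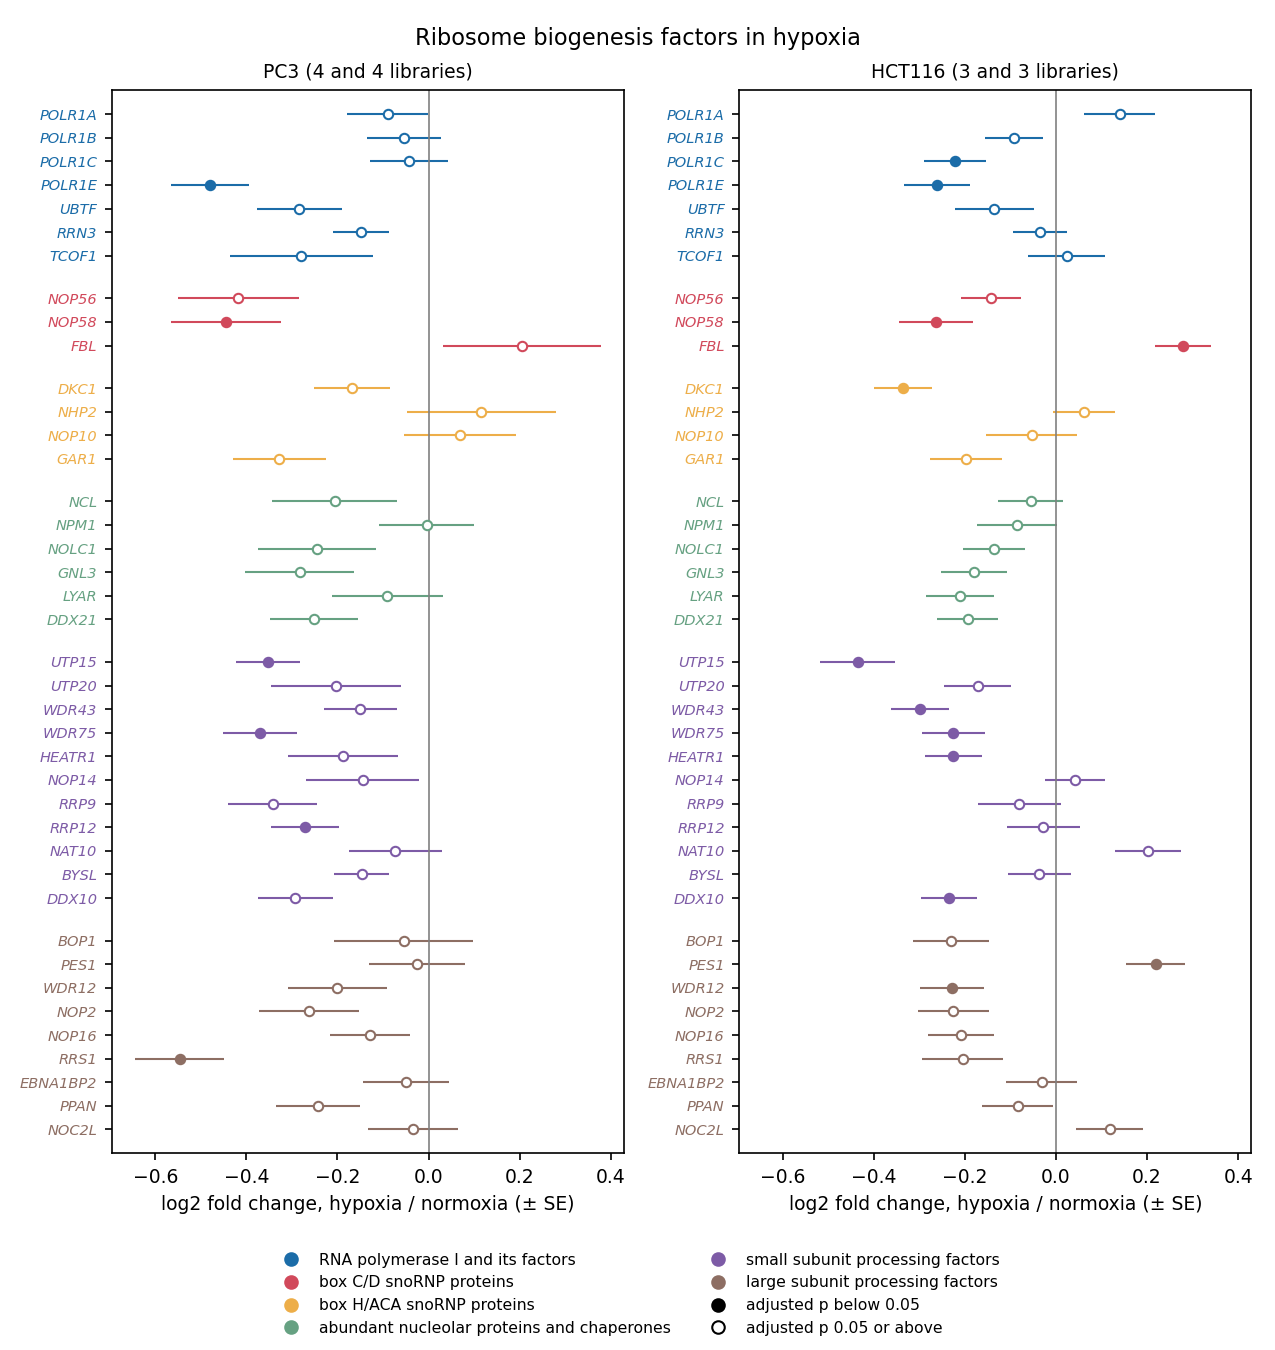
Log2 fold change in hypoxia for each of the 40 genes, coloured by role, in PC3 (left) and HCT116 (right), with bars for the standard error and filled points for adjusted p below 0.05. Most points lie left of 0 in both lines, 37 of 40 in PC3 and 32 of 40 in HCT116, and FBL and PES1 are the filled points on the right in HCT116.

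In hypoxia the ribosome biogenesis factors were mostly lower, by small amounts. In PC3 the median log2 fold change of the 40 genes was -0.19, compared with 0.0023 for the 14309 genes tested, and 37 of 40 had a value below 0 (49.6% of all genes did). In HCT116 the median was -0.14, compared with 0.0018 for the 14120 genes tested, and 32 of 40 were below 0 (49.7% of all genes). Both lines gave a value below 0 for 31 genes. Among the 40, RRS1 fell by 31.5% in PC3 and UTP15 fell by 26.1% in HCT116, the largest falls in each line. Counts are relative to the rest of the library, so a lower value for every RNA in the cell would not be visible here.

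Past the test (edgeR quasi-likelihood, Benjamini-Hochberg adjusted p below 0.05), 6 of the 40 genes fell in PC3 and 0 rose, against 5.29% of all tested genes lower and 6.03% higher. At an unadjusted p below 0.05, 17 were lower and 0 higher, against 14.1% lower and 13.6% higher among all genes. DESeq2 called 10 lower and 0 higher, against 6.33% and 7.39% of all genes. With the replicate block 17 of 40 fell and 0 rose, against 13.6% lower and 14.9% higher among all genes, and all 6 of the unblocked calls were among the 17. In HCT116, 10 of 40 fell and 2 rose, against 11.3% lower and 14.6% higher among all genes. The 6 genes that fell in PC3 were RRS1, POLR1E, NOP58, WDR75, UTP15 and RRP12. The 10 that fell in HCT116 were UTP15, DKC1, WDR43, NOP58, POLR1E, DDX10, WDR12, WDR75, HEATR1 and POLR1C, and FBL and PES1 rose. POLR1E, NOP58, UTP15 and WDR75 fell in both lines, which is 4 of 40 beside 2.02% of the 13090 genes tested in both. Of the 40, 12 fell in either line. Among the 13090 genes, 711 fell in PC3 and 1551 in HCT116, with 265 of them in both. In a single fit over all 14 libraries, UTP15 alone of the 4 members passed in both lines, as POLR1E, NOP58 and WDR75 lost their HCT116 calls (edgeR adjusted p = 0.0685, 0.168 and 0.0953). Hypoxic levels lay wholly below normoxic levels for 9 genes in PC3 (11.3% of all tested genes) and for 19 in HCT116 (22.2% of all tested genes).

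Single libraries moved these counts. In PC3 the number of lower genes was 2 without normoxic replicate 2, hypoxic replicate 2 or normoxic replicate 3, 3 without normoxic replicate 4, 10 without normoxic replicate 1, 5 without hypoxic replicate 4 and 8 without both libraries of replicate 1. The share of all genes that were lower moved too, to 1.40%, 1.90% and 1.31% in the fits with 2 such genes, 2.51% in the fit with 3, 4.66% without normoxic replicate 1, 6.52% without hypoxic replicate 4 and 5.42% without both libraries of replicate 1. In HCT116 it was 4 without normoxic replicate 1 and 5 without normoxic replicate 2, hypoxic replicate 2 or hypoxic replicate 3, against 7.48% to 9.17% of all genes lower in those 4 fits. The number higher was 3 without hypoxic replicate 2 (10.6% of all genes) and 1 in each of the other 5 fits (9.65% to 13%). POLR1E and RRS1 in PC3, and UTP15, DKC1, WDR43 and FBL in HCT116, kept adjusted p below 0.05 whichever library was left out. In HCT116, DDX10 passed in 3 of the 6 fits that left out a library, POLR1C and HEATR1 in 2 and WDR12 in 1 (edgeR adjusted p up to 0.0607, 0.101, 0.0918 and 0.115). A correction of each library for trends with GC content and transcript length, added after seeing the data, left 6 lower in PC3 (5.47% of all genes) and 10 in HCT116 (11.6%), but not the same genes. It ended calls that are given with their genes, and it added UBTF and RRP9 in PC3 and NOP56, UTP20, BOP1, NOP2 and NOP16 in HCT116.

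**Figure D2:**
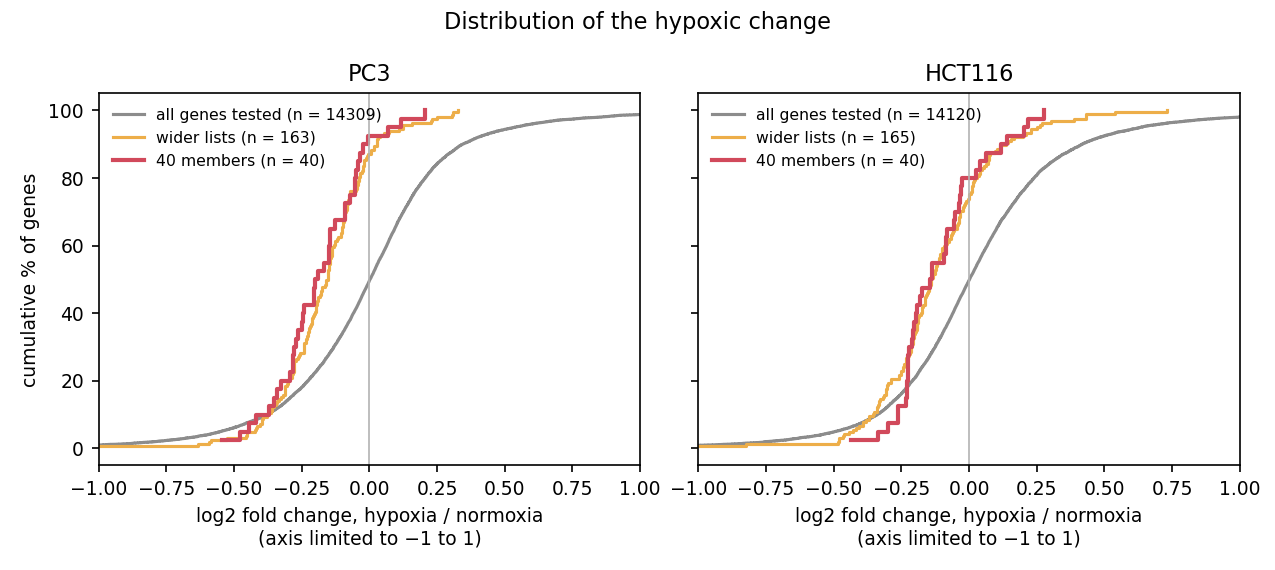
Cumulative percentage of genes (vertical axis) against log2 fold change in hypoxia (horizontal axis, shown from -1 to 1) for all genes tested, for 165 further ribosome biogenesis and RNA polymerase III genes (those tested) and for the 40 factors. Apart from the lower tail, where the curves cross, those of the 40 and of the further genes run left of the curve of all genes in both lines, with medians of -0.19 and -0.15 in PC3 and -0.14 and -0.14 in HCT116.

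Among the 7 genes of RNA polymerase I and its factors, POLR1E fell in both lines. POLR1E encodes a subunit particular to RNA polymerase I and lies on chromosome 9 (37485945 to 37503694, GRCh37). In PC3 its level was 36.1, 41.6, 43.3 and 41.5 CPM in normoxic replicates 1 to 4 and 26.9, 30.1, 32.8 and 26.3 CPM in the hypoxic replicates. In HCT116 it was 128, 119.6 and 124 CPM in normoxia and 111, 94.8 and 100.5 CPM in hypoxia. The conditions did not overlap in either line. The level fell by 28.3% in PC3 (log2 fold change -0.48 ± 0.086 SE, edgeR adjusted p = 0.00910) and by 16.5% in HCT116 (-0.26 ± 0.073, adjusted p = 0.0224). In HCT116 the call was lost without normoxic replicate 1, hypoxic replicate 2 or hypoxic replicate 3 (adjusted p up to 0.0814).

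The other members of this group moved less. POLR1C, a subunit shared by RNA polymerases I and III, fell by 14.2% in HCT116 (log2 fold change -0.22, edgeR adjusted p = 0.0340) and gave -0.04 in PC3 (adjusted p = 0.784). UBTF, which binds the ribosomal DNA promoter, gave -0.28 in PC3 (adjusted p = 0.0825, and 0.0119 with the replicate block) and -0.14 in HCT116. RRN3, the factor that makes the polymerase competent to start, gave -0.15 in PC3 (adjusted p = 0.151, and 0.0439 with the block) and -0.04 in HCT116. The catalytic subunits did not pass the test, with POLR1A at -0.09 in PC3 and 0.14 in HCT116 and POLR1B at -0.05 and -0.09. Corrected for GC content and length with the block, POLR1A passed as lower in PC3 (-0.19, edgeR adjusted p = 0.0145). Its HCT116 value in that fit was -0.06 and did not pass (0.366). TCOF1, the nucleolar protein treacle, gave -0.28 in PC3 and 0.02 in HCT116.

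**Figure D3:**
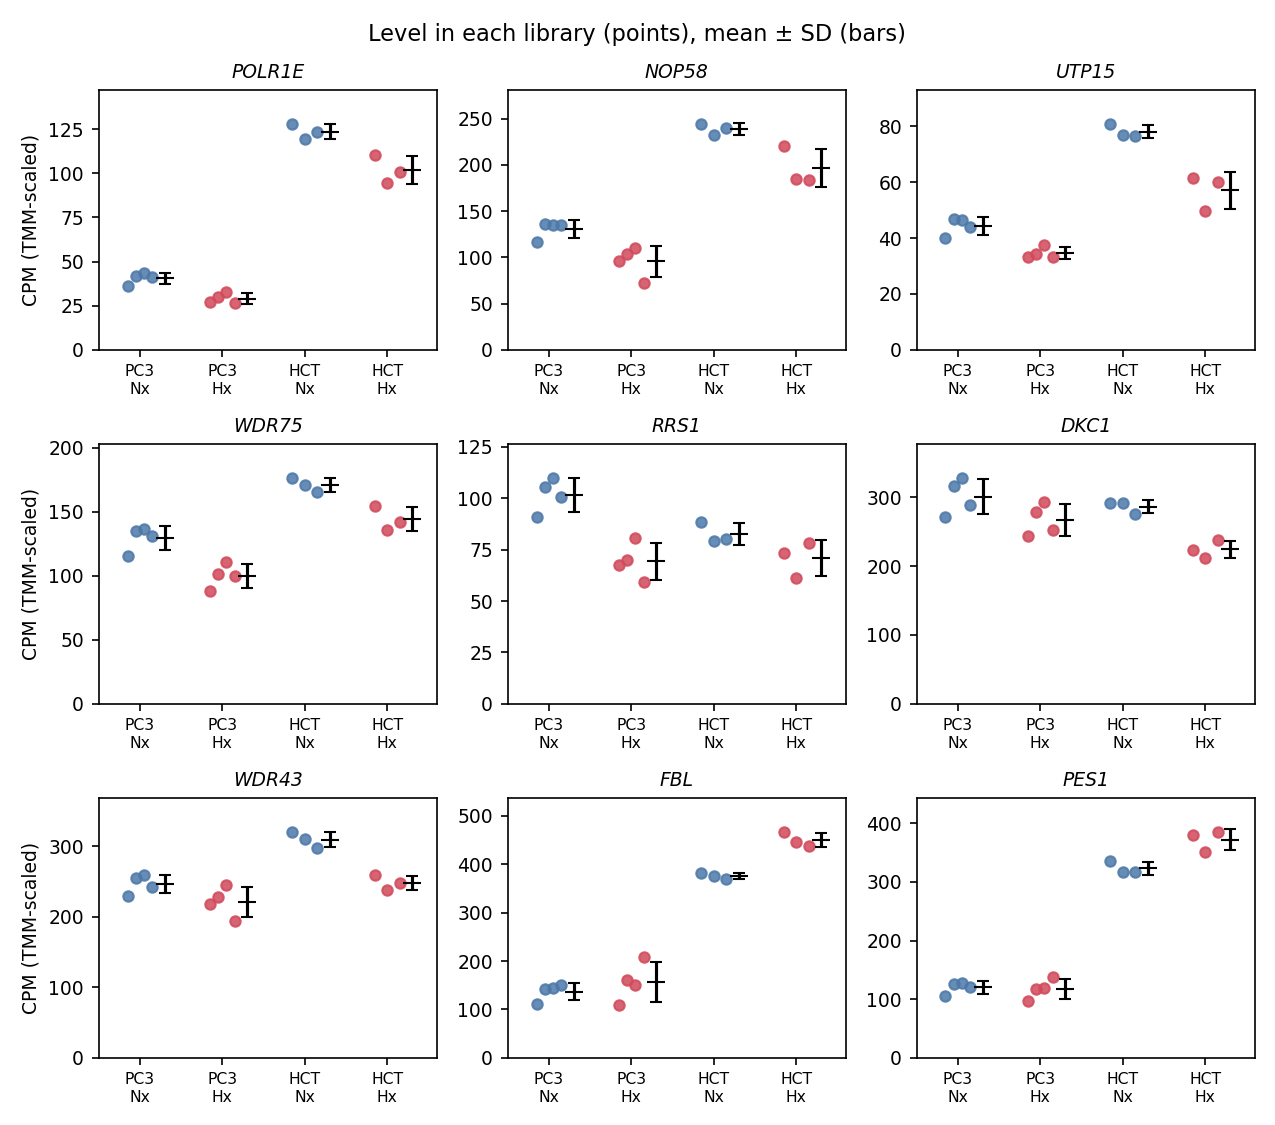
CPM (vertical axis, from 0) of 9 named factors in each library of normoxic (Nx) and hypoxic (Hx) PC3 and HCT116 (HCT), with the mean and SD beside the points. POLR1E, NOP58, UTP15 and WDR75 are lower in hypoxia in both lines, and FBL and PES1 are higher in hypoxia in HCT116.

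The 3 proteins of box C/D snoRNPs did not move together. NOP58, a core protein of these particles, stood at 117, 136, 135 and 135 CPM in normoxic PC3 and at 96.4, 104, 110.5 and 72.3 CPM in hypoxic PC3. In HCT116 it stood at 244, 232 and 240.3 CPM in normoxia and 220.3, 185 and 184 CPM in hypoxia. Hypoxic replicate 4 was the lowest PC3 library for NOP58, and the conditions did not overlap in either line. NOP58 fell by 26.5% in PC3 (log2 fold change -0.44 ± 0.12 SE, edgeR adjusted p = 0.0449, and 0.0176 with the block) and by 16.6% in HCT116 (-0.26 ± 0.081, adjusted p = 0.0343). It passed the test in 3 of 8 fits that left out a PC3 library (adjusted p up to 0.128) and in 2 of 6 that left out an HCT116 library (up to 0.121). Corrected for GC content and length, NOP58 gave -0.38 in PC3 (adjusted p = 0.0882) and -0.15 in HCT116 (adjusted p = 0.130) and passed in neither. With the correction and the block together it passed in PC3 (-0.39, edgeR adjusted p = 0.0327) and in HCT116 (-0.16, 0.0401). NOP56, its partner in the particle, gave -0.42 in PC3 (adjusted p = 0.0740, and 0.0146 with the block) and -0.14 in HCT116 (adjusted p = 0.136).

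FBL, the methyltransferase of the same particle, went the other way in HCT116. Its level there was 382, 375 and 369 CPM in normoxia and 466, 445 and 438 CPM in hypoxia, a rise of 21.3% (log2 fold change 0.28 ± 0.062 SE, edgeR adjusted p = 0.00757). All hypoxic HCT116 libraries were above all normoxic ones. In PC3 it was 110.4, 143, 144 and 150.4 CPM in normoxia and 108, 161, 151 and 208 CPM in hypoxia, with overlapping conditions (0.20 ± 0.17, adjusted p = 0.485). Hypoxic replicate 4 was the highest PC3 library for FBL and the lowest for NOP58 and NOP56. With libraries scaled by total counts only, the HCT116 rise was 0.19 and no longer passed (adjusted p = 0.0557), and it did not pass in the single fit over 14 libraries either (0.26, edgeR adjusted p = 0.356).

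Of the 4 box H/ACA proteins, DKC1, the pseudouridine synthase, changed most in HCT116. It stood at 292.5, 291 and 276 CPM in normoxic HCT116 and at 223, 212 and 238 CPM in hypoxia, with no overlap, and fell by 20.8% (log2 fold change -0.34 ± 0.064 SE, edgeR adjusted p = 0.00367). In PC3 it stood at 272, 316, 328 and 289 CPM in normoxia and 244, 279, 293 and 253 CPM in hypoxia. These PC3 groups overlapped, and DKC1 gave -0.17 there (adjusted p = 0.225, and 0.0280 with the block). GAR1 gave -0.33 in PC3 (adjusted p = 0.0683, and 0.00413 with the block) and -0.20 in HCT116 (adjusted p = 0.0851). NHP2 and NOP10, the remaining core proteins, gave 0.12 and 0.07 in PC3 and 0.06 and -0.05 in HCT116, and neither passed in either line.

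The abundant nucleolar proteins and chaperones gave values below 0 for all 6 genes in both lines, and none passed the test in either (at an unadjusted p below 0.05, 2 of 6 were lower in PC3 and 3 of 6 in HCT116, against 14.1% and 17.9% of all genes). NPM1 (nucleophosmin) and NCL (nucleolin), a histone chaperone and an RNA-binding protein of the nucleolus, gave -0.0037 and -0.21 in PC3 and -0.09 and -0.06 in HCT116. NPM1 was between 1609 and 2105 CPM in normoxic PC3 and between 1618 and 2066 CPM in hypoxic PC3. It has near-identical pseudogene copies in the genome, which makes its counts less certain. The snoRNP chaperone NOLC1 gave -0.24 and -0.14 in PC3 and HCT116, the GTPase GNL3 (nucleostemin) -0.28 and -0.18, LYAR -0.09 and -0.21, and the helicase DDX21 -0.25 and -0.19. DDX21 passed in PC3 with the block (edgeR adjusted p = 0.0231). In HCT116, DESeq2 passed LYAR, DDX21 and GNL3 (adjusted p = 0.0278, 0.0195 and 0.0479), and LYAR and DDX21 also passed with each of the 3 other scalings.

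Of the small subunit processing factors, the largest group, 3 of 11 were lower in PC3 (27.3%, beside 5.29% of all genes) and 6 with the block (beside 13.6%). In HCT116, 5 of 11 were lower (beside 11.3%), and 0 were higher in either line. UTP15, on chromosome 5 (72861268 to 72879205), stood at 40.1, 46.99, 46.4 and 44.1 CPM in normoxic PC3 and at 33.4, 34.3, 37.6 and 33.2 CPM in hypoxic PC3. In HCT116 it stood at 80.7, 77.0 and 76.6 CPM in normoxia and 61.4, 49.5 and 60.2 CPM in hypoxia. The conditions did not overlap, and UTP15 fell by 21.7% in PC3 (log2 fold change -0.35 ± 0.070 SE, edgeR adjusted p = 0.0138) and by 26.1% in HCT116 (-0.44 ± 0.083, adjusted p = 0.00356). In PC3 the call was lost without normoxic replicate 2, hypoxic replicate 2 or normoxic replicate 3 (adjusted p up to 0.0609).

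WDR75, on chromosome 2 (190306172 to 190340278), was at 116, 135, 136.5 and 131 CPM in normoxic PC3 and 87.8, 101, 111 and 99.9 CPM in hypoxic PC3. HCT116 gave 176, 171 and 166 CPM in normoxia and 155, 136 and 142 CPM in hypoxia. Hypoxic levels were below every normoxic level in both lines. WDR75 fell by 22.6% in PC3 (log2 fold change -0.37 ± 0.082 SE, edgeR adjusted p = 0.0206) and by 14.4% in HCT116 (-0.23 ± 0.069, adjusted p = 0.0328). Corrected for GC content and length, it passed in neither line, at -0.27 in PC3 (adjusted p = 0.0589) and -0.07 in HCT116 (adjusted p = 0.436), although it passed in PC3 when the block was added to the correction (-0.27, adjusted p = 0.00399), and its canonical transcript was among the least GC-rich of the 40. WDR75 also lost its call in 4 of 8 fits leaving out a PC3 library and in 4 of 6 leaving out an HCT116 library (adjusted p up to 0.0793 and 0.112).

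WDR43 was at 320, 310 and 298 CPM in normoxic HCT116 and at 258.5, 238 and 247 CPM in hypoxia, and fell by 18.7% without overlap (log2 fold change -0.30 ± 0.064 SE, edgeR adjusted p = 0.00626). PC3 gave 229.6, 254, 258.5 and 242 CPM in normoxia and 218, 227, 244 and 194 CPM in hypoxia, with overlap (-0.15, adjusted p = 0.264). Corrected for GC content and length, the HCT116 value of WDR43 was -0.17 and did not pass (adjusted p = 0.0571). HEATR1 gave -0.23 in HCT116 (adjusted p = 0.0214) and -0.19 in PC3 (adjusted p = 0.348, and 0.0196 with the block). UTP15, WDR75, WDR43 and HEATR1 are known to share the subcomplex that joins the precursor RNA first, during transcription. All 4 fell in HCT116, beside 11.3% of all genes, a grouping made after their values were seen. WDR75 and WDR43 no longer passed once corrected for GC content and length. With the block added to the correction, WDR43 passed in HCT116 (-0.17, edgeR adjusted p = 0.0342) and WDR75 did not (0.333). In the single fit over 14 libraries, WDR75 and HEATR1 did not pass in HCT116 (edgeR adjusted p = 0.0953 and 0.231). Further members of the subcomplex, CIRH1A and NOL11 in the wider lists, gave -0.07 and -0.20 in HCT116 (adjusted p = 0.526 and 0.0423).

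RRP12, which acts in export and late maturation of the small subunit, fell by 17.1% in PC3 (log2 fold change -0.27, edgeR adjusted p = 0.0463) and gave -0.03 in HCT116. The PC3 call was lost in 6 of 8 fits that left out a library (adjusted p up to 0.153), with no filter on low counts (0.0622) and with median-of-ratios scaling (0.0528). The helicase DDX10 fell by 14.97% in HCT116 (-0.23, adjusted p = 0.0174) and gave -0.29 in PC3 (adjusted p = 0.0524, and 0.0186 with the block). Corrected for GC content and length, its HCT116 value was -0.15 and did not pass (adjusted p = 0.0727). RRP9, a protein of the U3 snoRNP, gave -0.34 in PC3 (adjusted p = 0.0510, and 0.00382 with the block) and -0.08 in HCT116. The other small subunit factors did not pass in either line, with UTP20 at -0.20 in PC3 and -0.17 in HCT116, NOP14 at -0.14 and 0.04, BYSL at -0.15 and -0.04, and the RNA acetyltransferase NAT10 at -0.07 and 0.20.

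Large subunit processing factors had 1 of 9 lower in PC3 (11.1%, beside 5.29% of all genes) and 3 with the block (beside 13.6%). In HCT116, 1 was lower and 1 higher (11.1% each, beside 11.3% and 14.6% of all genes). RRS1, which helps to bring the 5S particle into the large subunit, gave the largest fall of all 40 in PC3. It stood at 90.9, 105, 109.7 and 100.4 CPM in normoxic PC3 and at 67.3, 70.1, 80.5 and 59.1 CPM in hypoxia, without overlap, and fell by 31.5% (log2 fold change -0.55 ± 0.098 SE, edgeR adjusted p = 0.00923). In HCT116 it stood at 88.6, 79.2 and 80.2 CPM in normoxia and 73.4, 61.1 and 78.1 CPM in hypoxia. Those HCT116 groups did not overlap either, but the change did not pass (-0.20 ± 0.089, adjusted p = 0.113). A further same-strand gene model overlaps RRS1 in the annotation, so its reads are less certain.

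PES1, WDR12 and BOP1 form the PeBoW complex of large subunit maturation, and their RNAs differed in direction in HCT116. PES1 was at 337, 317 and 318 CPM in normoxic HCT116 and at 380, 352 and 385 CPM in hypoxia, a rise of 16.4% without overlap (log2 fold change 0.22 ± 0.064 SE, edgeR adjusted p = 0.0280). In PC3 it was at 105, 126, 128 and 120.5 CPM in normoxia and 96.2, 117, 119 and 138 CPM in hypoxia, with overlap (-0.02, adjusted p = 0.906). The HCT116 rise passed in only 1 of 6 fits that left out a library (adjusted p up to 0.139) and, with total-count scaling, was 0.13 (adjusted p = 0.210). WDR12 fell by 14.6% in HCT116 (-0.23, adjusted p = 0.0345, and 0.0547 once corrected for GC content and length). With the correction and the block together its HCT116 value passed (-0.19, edgeR adjusted p = 0.0335). In PC3 WDR12 gave -0.20 (adjusted p = 0.265, and 0.0188 with the block). BOP1 gave -0.23 in HCT116 (adjusted p = 0.0616) and -0.05 in PC3.

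The remaining large subunit factors did not pass in HCT116, where NOP2 and NOP16 were close to the threshold (edgeR adjusted p = 0.0541 and 0.0535) and passed with DESeq2 (0.0231 and 0.0256) and with each of the 3 other scalings. NOP2, an RNA methyltransferase, gave -0.26 in PC3 and -0.23 in HCT116, NOP16 -0.13 and -0.21, EBNA1BP2 -0.05 and -0.03, NOC2L -0.03 and 0.12, and PPAN -0.24 and -0.08. PPAN passed in PC3 with the block (edgeR adjusted p = 0.0390). PPAN shares exons with its readthrough partner P2RY11, and NHP2, GNL3, HEATR1, NOP16 and NOC2L overlap a coding gene on the opposite strand, so their counts are less certain where the counting did not use strand. NOP2, like RRS1, overlaps a further coding gene model on its own strand.

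**Figure D4:**
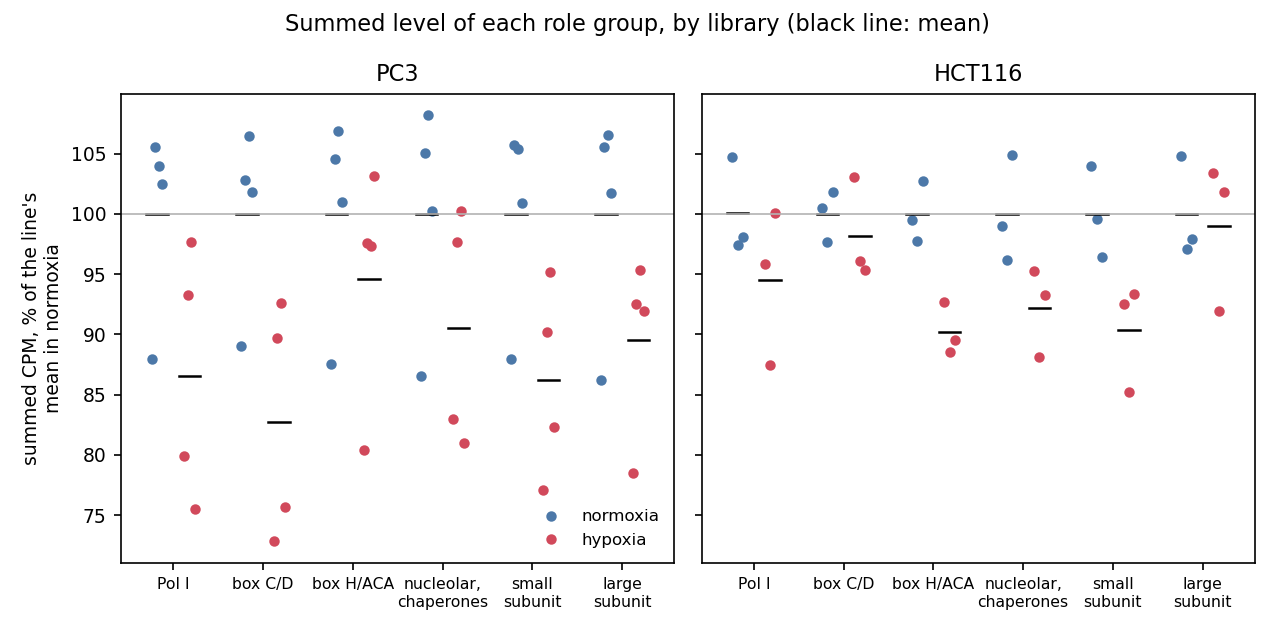
Summed CPM of each role group in each library as a percentage of the line's normoxic mean (vertical axis, not from 0), with black lines for the means. In PC3 the hypoxic means lie below 100% in every group with wide spread, and in HCT116 the box C/D and large subunit groups lie closest to 100%.

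Summed over the 40 genes, the level in PC3 was 9670 ± 869 CPM in normoxia and 8618 ± 853 CPM in hypoxia (SD, n = 4 each), which is lower by a log2 ratio of -0.17. The conditions overlapped, since normoxic replicate 1 had 8422 CPM and hypoxic replicate 3 had 9491 CPM, but the hypoxic library was the lower in each of the 4 numbered pairs. In HCT116 the sum was 13180 ± 350 CPM in normoxia and 12300 ± 524 CPM in hypoxia (SD, n = 3 each), a log2 ratio of -0.10, with no overlap. By role, the PC3 log2 ratios ran from -0.08 (box H/ACA) to -0.27 (box C/D), and those in HCT116 from -0.01 (large subunit) to -0.15 (box H/ACA and small subunit). Between the numbered PC3 pairs, the median log2 difference of the 40 genes was -0.14, -0.18, -0.14 and -0.30, with 38, 37, 36 and 31 genes lower.

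Whether the lines differed in their response was tested as an interaction over all 14 libraries. None of the 40 genes passed (edgeR; 2.32% of all tested genes did), and none did by DESeq2 (2.64% of all genes lower and 2.4% higher). At an unadjusted p below 0.05 there was 1 gene, RRS1, whose change was lower in PC3 than in HCT116 by 0.33 ± 0.15 (log2, SE; adjusted p = 0.294), against 16.0% of all genes at that threshold. The next, RRP12 and NAT10, differed by -0.23 and -0.26 (adjusted p = 0.374 and 0.415). The median difference over the 40 was -0.09, compared with -0.0028 for all genes. It was -0.14 without PC3 normoxic replicate 1, and -0.06 without PC3 hypoxic replicate 1, PC3 normoxic replicate 3, PC3 hypoxic replicate 4 or HCT116 hypoxic replicate 3. With the replicate block, 8 of the 40 were lower and 1 was higher at an unadjusted p below 0.05. Among all 15493 genes, 1925 were lower and 1813 higher at that threshold. None of the 40 passed the adjusted test with the block, beside 4.58% lower and 3.85% higher among all genes. A gene called in only 1 line is therefore not shown to respond differently in the other.

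**Figure D5:**
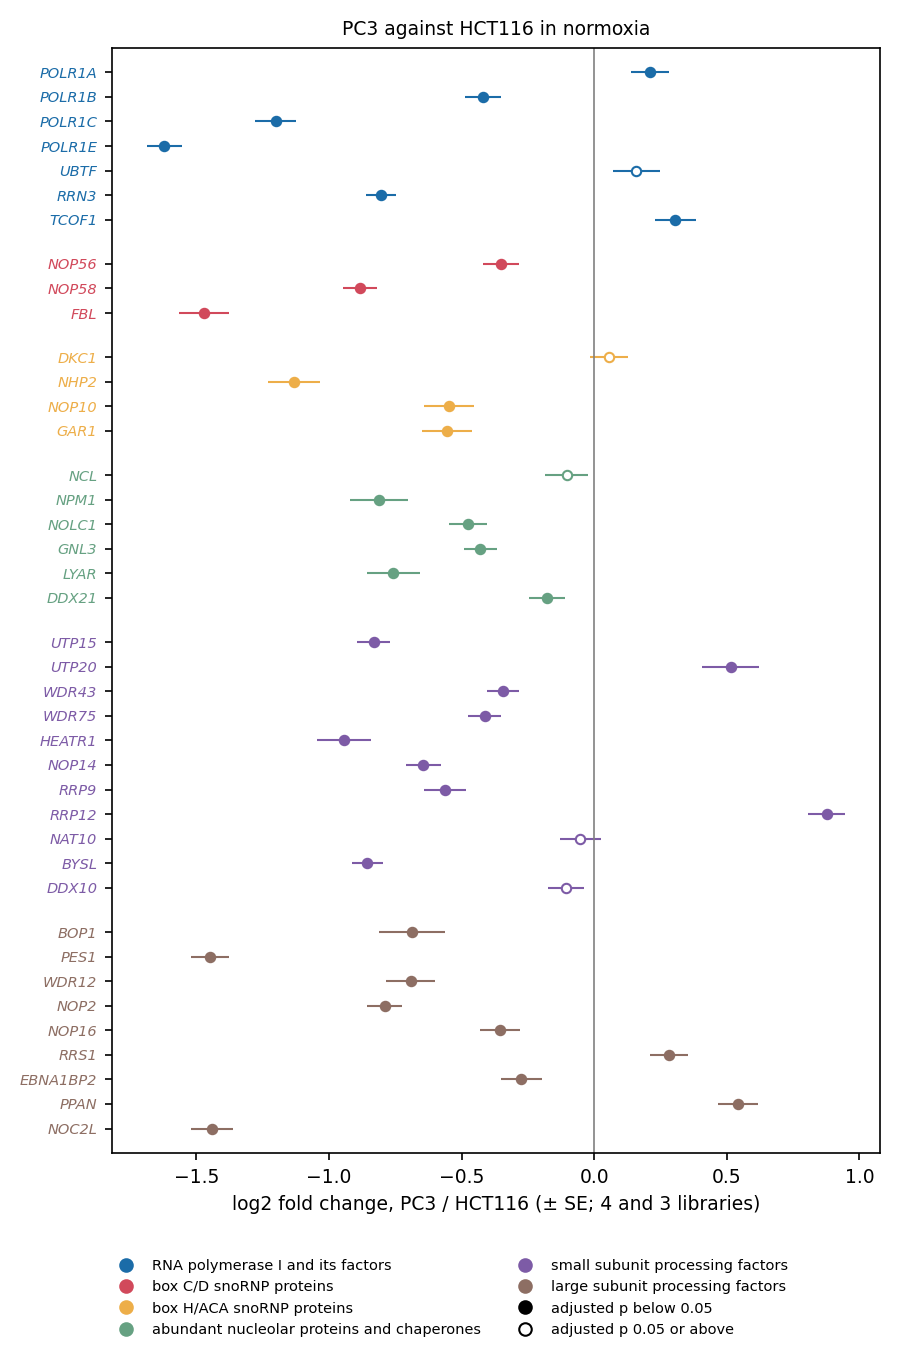
Log2 fold change of PC3 over HCT116 in normoxia for each of the 40 genes, with bars for the standard error, filled points for adjusted p below 0.05 and colours for role. Most filled points lie left of 0, with POLR1E farthest at -1.62, and RRP12 lies farthest right at 0.88.

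The lines differed far more from each other than with oxygen, although any batch that separated their libraries cannot be told apart from line. In normoxia 29 of the 40 genes were lower in PC3 than in HCT116 and 6 were higher (edgeR adjusted p below 0.05), against 40.5% lower and 42.9% higher among the 15206 genes tested. The median log2 difference was -0.51 for the 40 and 0.03 for all genes. POLR1E was the lowest of all at -1.62 ± 0.065 (SE; adjusted p = 1.43e-08), which is 0.325 times the HCT116 level. FBL gave -1.47, PES1 -1.45, the nucleolar protein NOC2L -1.44, POLR1C -1.20 and NHP2 -1.13. FBL was at 137 ± 18.02 CPM in normoxic PC3 (SD, n = 4) and 376 ± 6.52 CPM in HCT116 (SD, n = 3), and NOC2L at 129 ± 11.3 and 346 ± 26.9 CPM. The normoxic libraries of the lines did not overlap for all 29 lower genes and for 5 of the 6 higher genes, against 40.2% lower and 42.8% higher without overlap among all genes tested.

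By role, without a test between roles, the counts in this contrast were as follows, beside the 40.5% lower and 42.9% higher of all genes. All 3 box C/D proteins, 5 of 6 abundant nucleolar proteins and chaperones and 3 of 4 box H/ACA proteins were lower in PC3, and 0 of these were higher. Of the large subunit factors 7 of 9 were lower and 2 higher. Among RNA polymerase I and its factors 4 of 7 were lower and 2 higher, and among small subunit factors 7 of 11 were lower and 2 higher. RRP12 was higher in PC3 by 0.88 ± 0.069 (edgeR adjusted p = 1.36e-06), at 191 ± 12.02 CPM compared with 103 ± 6.53 CPM. PPAN (0.54), UTP20 (0.51), TCOF1 (0.31), RRS1 (0.28) and POLR1A (0.21) were the other 5 higher genes. The DDX21 call (-0.18, edgeR adjusted p = 0.0355) was lost with the block (0.112), with median-of-ratios scaling (0.0602), with total-count scaling (0.346), and without PC3 normoxic replicate 4 or any one HCT116 normoxic replicate (up to 0.0968). EBNA1BP2 lost its call with total-count scaling (-0.17, adjusted p = 0.0701). The POLR1A call was lost with the replicate block (adjusted p = 0.0769), with upper-quartile scaling (0.0519) and without normoxic replicate 2 or 3 of either line (adjusted p up to 0.0996). Offsets for length and GC turned POLR1A to -0.40, UTP20 to -0.0071 and BOP1 from -0.69 to 0.11. They added NCL (-0.37, edgeR adjusted p = 0.00171), NAT10 (-0.23, 0.0178) and DDX10 (-0.31, 0.00187) as lower in PC3. They also ended the calls of RRP9, which went from -0.56 to -0.05 (adjusted p = 0.604), and NOP16, from -0.36 to -0.17 (adjusted p = 0.0642), both counted above as lower.

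Per unit of transcript length (TPM, the length-scaled share of the library), the order within each line was steep. NPM1 led in both, at 4117 ± 439 TPM in normoxic PC3 and 5701 ± 341 TPM in HCT116, and NCL was next at 1311 ± 110.3 and 1117 ± 99.3 TPM. NOP56, NOP10 and NOLC1 followed in PC3 (578, 540 and 419 TPM), and FBL, NHP2 and NOP10 in HCT116 (755, 666 and 621 TPM). UTP15 was the lowest in PC3 at 24.6 ± 1.55 TPM and POLR1A the lowest in HCT116 at 21.9 ± 2.08 TPM. Lengths came from the GENCODE canonical transcript, which can be longer than the RefSeq model used for counting, as may be so for POLR1A (12480 bases) and WDR12 (8068 bases).

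The wider lists held 165 further genes of RNA polymerase I, snoRNP assembly, subunit processing, ribosomal RNA nucleases and RNA polymerase III. In PC3, 25 of the 163 that were tested fell and 3 rose (67 and 4 with the block), and in HCT116, 46 of 165 fell and 11 rose. As shares these were 15.3% and 1.84% in PC3 (41.1% and 2.45% with the block) and 27.9% and 6.67% in HCT116, beside 5.29% and 6.03% (13.6% and 14.9%) and 11.3% and 14.6% of all genes. Their median log2 fold change was -0.15 in PC3 and -0.14 in HCT116. The RNA polymerase III list had a median of -0.10 in PC3, with 17 of 22 genes below 0, and of 0.0038 in HCT116, with 12 of 22 above 0. By list, PC3 had 10 of 50 large subunit, 5 of 44 small subunit, 4 of 11 RNA polymerase I, 3 of 22 RNA polymerase III, 2 of 25 nuclease and 1 of 11 snoRNP genes lower. HCT116 had 14 of 50, 18 of 44, 3 of 13, 4 of 22, 5 of 25 and 2 of 11 lower. In the same order, 0, 1, 1, 1, 0 and 0 were higher in PC3 and 2, 1, 3, 2, 2 and 1 in HCT116. In both lines 13 of these genes fell, which is 52.0% of those in PC3 and 28.3% of those in HCT116. Among all genes tested in both lines, the 265 that fell in both were 37.3% of those in PC3 and 17.1% of those in HCT116.

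The promoter selectivity factor SL1, which recruits RNA polymerase I with UBTF, had 3 of its TAF subunits lower in both lines. Of all genes tested in both lines 2.02% were, and these subunits were grouped after their values were seen. TAF1C gave -0.59 in PC3 and -0.39 in HCT116, TAF1A -0.53 and -0.26, and TAF1D -0.42 and -0.38 (edgeR adjusted p at most 0.0246). TAF1B gave -0.12 and -0.15 and did not pass (adjusted p = 0.325 and 0.207). The polymerase subunit CD3EAP fell in PC3 (-0.36, adjusted p = 0.0375), while KDM2A, a histone demethylase, rose in both (0.31 and 0.43) and BAZ2A, a silencer of ribosomal genes, rose in HCT116 (0.27). PTRF, a release factor also known for caveolae, rose in HCT116 (0.54) and had no counts in PC3.

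Among the processing lists, the export adaptor NMD3 fell in PC3 from 169.6 ± 5.21 to 123 ± 4.39 CPM (SD, n = 4 each; log2 fold change -0.46, edgeR adjusted p = 0.00272) and gave -0.30 in HCT116 (adjusted p = 0.0467), and the kinase RIOK2 fell in both lines (-0.31 and -0.49). DIMT1, a methyltransferase of the small subunit RNA, fell in HCT116 from 105 ± 15.4 to 58.4 ± 9.12 CPM (SD, n = 3 each; -0.82, adjusted p = 0.000910). It was 70.0 ± 2.27 and 68.0 ± 1.93 CPM in PC3, and the difference between the lines passed (0.80 ± 0.14, adjusted p = 0.00886). POLR3GL, of RNA polymerase III, also differed (-0.75, adjusted p = 0.0263) and fell in PC3 (-0.63). Of the 165 wider genes, only DIMT1 (1 higher) and POLR3GL (1 lower) passed in the interaction. That is 0.606% each way, beside 1.01% higher and 1.31% lower among all genes. Further falls were those of NOC3L (-0.45) and the snoRNP assembly factor NUFIP1 (-0.45) in PC3, and of NOL8 (-0.48) and RPF2 (-0.48) in HCT116. WDR46 gave -1.17 in HCT116, but its level was only 0.765 to 2.93 CPM there and 0.712 to 15.3 CPM in normoxic PC3. Rises were fewer, with IMP3 in both lines (0.33 and 0.25) and MDN1 (0.73), PIH1D1 (0.43) and EXOSC5 (0.39) in HCT116.

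The wider MYC network was counted beside these factors. MYC RNA gave 0.01 ± 0.074 in PC3 (log2 fold change, SE; edgeR adjusted p = 0.931) and rose in HCT116 by 0.23 ± 0.064 (adjusted p = 0.0231). MXI1 and MXD1, which compete with MYC for its partner MAX, rose in both lines. MXI1 went from 17.5 ± 0.749 to 31.9 ± 3.90 CPM in PC3 and from 38.8 ± 1.94 to 68.0 ± 10.2 CPM in HCT116 (log2 fold change 0.87 and 0.83). MXD1 changed by 0.87 and 0.80, from a level of 26.7 ± 3.23 CPM in PC3 and 3.41 ± 0.445 CPM in HCT116. MXD4, MNT and MGA, of the same network, rose in HCT116 (0.58, 0.62 and 0.59), where MLX fell (-0.35). In PC3, MXD4 gave 0.34 (adjusted p = 0.131, and 0.00474 with the block) and MLX -0.16 (0.0992, and 0.0362 with the block). In all, 2 of the 11 tested genes of the network rose in PC3 and 0 fell, beside 6.03% higher and 5.29% lower among all genes. With the block 3 rose and 1 fell in PC3, beside 14.9% and 13.6% of all genes. In HCT116, 6 of 11 rose and 1 fell, beside 14.6% and 11.3% of all genes. MAX, MXD3, MYCL1 and MLXIP passed in neither line and MYCN had no counts. RPL5 and RPL11, which bind MDM2 when ribosome assembly fails, gave 0.05 and 0.09 in PC3 and 0.0040 and 0.0070 in HCT116, and MDM2 gave 0.15 (adjusted p = 0.125, and 0.0465 with the block) and -0.0025. CDKN1A, an inhibitor of the cell cycle, rose in HCT116 (0.55, edgeR adjusted p = 0.00577) and gave 0.34 in PC3 (adjusted p = 0.496, and 0.0295 with the block). Whether any of these moved the ribosome biogenesis factors was not tested.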

How the data were processed

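Polyadenylated RNA of 14 libraries was analysed (PC3: 4 normoxic and 4 hypoxic; HCT116: 3 and 3), described by the study as biological replicates. The authors removed reads that matched ERCC spike-ins, aligned the others to GRCh37 (HISAT2, 2.05) and deposited the raw read count of each RefSeq gene from HTSeq (0.5.4p3, intersection-strict mode) without normalisation. Whether counting used strand, and the RefSeq release, are not given in the sources used here. ERCC read totals were not used here, so all levels are relative to the library.

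The members and lists were chosen with earlier results of these data known. Genes passing filterByExpr were tested with edgeR 4.0.16 (quasi-likelihood, TMM scaling, two-sided, Benjamini-Hochberg over all genes tested, threshold 0.05; R 4.3.3) in 4 comparisons, namely hypoxia against normoxia in each line, PC3 against HCT116 in normoxia, and the interaction. SE is the unshrunken log2 fold change divided by the root of F. CPM used TMM factors over 14 libraries, and TPM used GENCODE canonical transcript lengths (found for 87% of symbols). A count of 3 corresponded to 0.0199 to 0.0421 CPM. The procedure was tested on simulated data. Alternatives were other scalings, DESeq2 1.42.0, other filters, a replicate block, single libraries left out and, added after seeing the data, length and GC offsets and PC3 without replicate 1. Per-library values are given for members past the threshold in both lines and the 3 largest rises and falls past it in each line. Up to 5 genes per direction and line were drawn from the wider lists, and the other genes of those lists were named after their values were seen. Promoters were taken from RefSeq. A few genes of the wider, context and marker lists are not reported here.

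Same-numbered libraries were checked for pairing by the correlation of their deviations from the group means. It was 0.137 to 0.672 in PC3, 0.0412 to 0.141 in HCT116 and -0.0294 to 0.0152 between normoxic lines. The number was treated as a possible pairing in PC3 only. The PC3 and HCT116 ranges overlap, and replicate 1 stood apart in both PC3 conditions, so the correlations do not establish a pairing. Replicates of a group differed beyond sampling noise in every pair.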

Additional observations from a re-analysis of the deposited data

Results flagged for a closer look

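Within the groups of 4 PC3 libraries, values far from the other 3 were sought for each of the 40 genes, the summed levels and the total counts, 96 sets in all. Chance would single out about 1 in 20 such sets, and 12 were found. All 12 were in replicate 1 and all were low. In normoxic PC3 replicate 1, RRN3 was at 80.0 CPM (89.4 to 91.1 in the other libraries), NOP58 at 117 (135 to 136), NHP2 at 84.4 (111 to 115), GNL3 at 199 (229 to 232), LYAR at 60.7 (80.3 to 83.8), HEATR1 at 106 (142 to 145), NOP14 at 91.7 (106 to 108), DDX10 at 86.7 (102 to 104), WDR12 at 58.1 (75.9 to 77.7), NOP16 at 53.9 (65.4 to 67.7) and PPAN at 98.6 (117 to 121). In hypoxic PC3 replicate 1, HEATR1 was at 93.7 CPM (123 to 128). The genes share a library, so these 12 are not independent of each other. Without both libraries of replicate 1 the median log2 fold change of the 40 genes in PC3 was -0.20, and 8 were lower and 0 higher by edgeR (5.42% and 7.04% of all genes). The calls of NOP58 (-0.50, edgeR adjusted p = 0.0602) and RRP12 (-0.265, 0.0617) were lost in that fit, while UBTF, GAR1, RRP9 and DDX10 were gained.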

How the results depend on the processing

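The median of the 40 genes stayed below 0 in all 4 comparisons under every alternative run. In PC3 (6 lower, beside 5.29% of all genes) the number lower was 13 with total-count scaling (12.1% of all genes), 10 with DESeq2 (6.33%), 17 with the replicate block (13.6%), 10 in a single fit over 14 libraries (8.04%), 22 with length and GC offsets plus the block (15.2%), and 2 to 10 with a library left out (1.31% to 6.52%). In HCT116 (10 lower, beside 11.3% of all genes, and 2 higher) it was 21 lower (22.3%) and 0 higher with total-count scaling, 16 lower with DESeq2 (10.9%), 3 lower (5.13%) and 0 higher in the single fit (calls of POLR1E, NOP58, WDR75, POLR1C, HEATR1, DDX10, WDR12, FBL and PES1 were lost), 16 lower (14.5%) and 3 higher with length and GC offsets plus the block, and 4 to 11 lower (7.48% to 10.4%) and 1 to 3 higher with a library left out. Total-count scaling moved the median to -0.30 in PC3 and -0.23 in HCT116, and the summed log2 ratio to -0.26 and -0.17. It also moved the median of all genes to -0.10 in PC3 and -0.09 in HCT116, and the difference of the 40 genes from that median was then -0.20 and -0.14, as with TMM. The split of all calls in PC3 was 863 higher and 757 lower with TMM, 562 and 1733 with total counts, and 681 and 1048 with upper-quartile scaling. In HCT116 it was 2061 and 1597 with TMM and 1286 and 3146 with total counts.

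With the replicate block, 14 genes were lower and 2 higher in HCT116 (11.7% and 14.9% of all genes), and 28 were lower and 5 higher between lines (39.2% and 41.5%). Replicate numbers were not treated as a pairing in these comparisons. The 4 genes added in HCT116 were LYAR, BOP1, NOP2 and NOP16 (edgeR adjusted p from 0.0379 to 0.0467). In the interaction, RRP9 alone passed with length and GC offsets plus the block, 1 gene lower at -0.25 (edgeR adjusted p = 0.0444), beside 6.31% of all genes lower. Between lines, length and GC offsets reversed POLR1A (-0.40, and -0.40 with the block), UTP20 (-0.0071 and -0.030) and BOP1 (0.11 and 0.095). With a library left out, the number lower between lines was 28 to 29 (38.8% to 41.7% of all genes) and higher 5 to 7 (41.2% to 43.4%). No cause of these shifts was tested. At these depths every one of the 40 genes was far above 3 counts.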
